A study of Mus musculus with 17 samples.

Results

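The genes described here degrade heme and handle the iron that heme releases. They were named by symbol: the heme oxygenase Hmox1, the biliverdin reductases Blvra and Blvrb, the heme transporters Slc48a1 and Flvcr1, the iron exporter Slc40a1, the ferritin chains Fth1 and Ftl1, the transferrin receptor Tfrc and the transcription factor Spic. All 10 were found once each among the 31091 gene identifiers of the count table. The set was chosen from a readout of these samples. Which values chose it is not stated, and the changes with medium of dying cells against WT medium were taken to be those, so they are given below as a description, without a test. Tests are given for necroptotic against apoptotic medium, for cDC1 against cDC2 with WT medium, and for genes outside the set. Were those comparisons also part of the choice, the tests of the 10 genes would not be independent of it. The lists of other heme and iron genes were likewise chosen with earlier results of these data known. Most genes named from them are those that changed most. Their counts and p-values are therefore not independent of these data.

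Bulk RNA sequencing was performed on type 1 and type 2 conventional dendritic cells (cDC1 and cDC2), which take up dying cells and present their antigens to T cells. CD11c+ cells were enriched from pooled spleens of female C57BL/6JRj mice, purchased at 8 weeks of age. The mice carried subcutaneous B16 tumors expressing FLT3 ligand, a factor that expands dendritic cells. They were cultured for 6 h with GM-CSF and conditioned medium, and cDC1 (XCR1+ CD8α+ SIRPα-) and cDC2 (SIRPα+ CD11b+ XCR1-) were then sorted from cultures that had held both. The medium, with its dead cells and debris, came from the lung tumor line TC-1, which carries HPV16 E6 and E7 and an activated ras oncogene. It was WT medium from unmodified TC-1 cells, BimS medium from TC-1-iBimS cells dying by apoptosis, or RIPK3 medium from TC-1-iRIPK3 cells dying by necroptosis. BimS is a short, potent form of the BH3-only protein Bim, and the RIPK3 form used here assembles by itself. Both were switched on by cumate, which all 3 lines received, WT cells included. Each inducible line was a clone, so a property of the clone and the mode of death cannot be told apart. There were 3 samples in each group except cDC2 with RIPK3 medium, which had 2 (17 in all). Whether samples of a group came from separate mouse pools is not stated for each sample, and the p-values below measure only the spread between these samples.

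Heme is a ring that holds iron, and free heme is toxic. A cell that takes up dead cells imports heme from its phagolysosome through SLC48A1 (HRG1). Heme oxygenase 1, the product of Hmox1, opens the ring to biliverdin, carbon monoxide and ferrous iron. The released iron is stored in ferritin shells of heavy and light chains or leaves the cell through ferroportin, the product of Slc40a1. In the spleen this route is best known from red pulp macrophages, which recycle the iron of aged red cells and depend on SPIC. The repressor BACH1 holds Hmox1 and the ferritin genes down until heme binds it.

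Ferritin and transferrin receptor messages also carry iron-responsive elements, hairpins that iron regulatory proteins grip when iron is scarce. In the 5′ UTR of ferritin messages the grip blocks translation, and in the 3′ UTR of Tfrc it protects the message from decay. The canonical coding transcripts of GENCODE M39 (GRCm39) were searched along their sense strand for an unpaired C, 5 bases, the loop CAGUGN and 5 bases that all pair with the first 5, with G-U pairs allowed. Such a hairpin was present in the UTRs of 148 genes among 21593 transcripts (0.685%). Of the 10 genes, 4 had one: Fth1, Ftl1 and Slc40a1 in the 5′ UTR, and Tfrc with 4 copies in the 3′ UTR. The sites of the ferritin chains and of Tfrc are shown. The ferritin messages were abundant and higher with medium of dying cells, and the Tfrc message stayed low. The position of the hairpin did not go with abundance across the 4 genes. Slc40a1, whose 5′ UTR site is not shown, was also low, with at most 90 counts in any sample. Like the ferritin messages, it was higher with medium of dying cells. Capitals mark the loop, and each run reads 5′ to 3′ in the sense of the message.
Fth1, chr19:9960095-9960124 (+): uuuccugcuucaaCAGUGCuugaacggaac
Ftl1, chr7:45109203-45109232 (-): ugucuugcuucaaCAGUGUuugaacggaac
Tfrc, chr16:32450036-32450065 (+): uaauuaucggaagCAGUGCcuuccauaauu
Tfrc, chr16:32450415-32450444 (+): acauuaucgggagCAGUGUcuuccauaaug
Tfrc, chr16:32450480-32450509 (+): ucuauaucggagaCAGUGAucuccauaugu
Tfrc, chr16:32450527-32450556 (+): uaauuaucgggaaCAGUGUuucccauaauu
A match is a description of letters, and RNA levels do not report translation. In RefSeq promoters (GRCm38.p6, 250 bases before to 50 after a start) the antioxidant response element TGACNNNGC was searched on both strands. It was found in 12.4% of all 32851 promoters. Of the 10 genes, 7 had entries, with 10 promoters between them, and those of Blvra and Flvcr1 held the letters. Sites outside this window were not searched, so a gene without the letters here may carry them elsewhere. Hmox1, Slc48a1 and Slc40a1 had no entry, were not searched and are named only.

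Sequencing depth was similar throughout, with 16095159 to 21645289 counts per sample. Levels are given as CPM, the counts of a gene per 1000000 counts of its library, after scaling by edgeR's TMM factors, and log2 fold changes with standard errors (SE) come from edgeR fits within each cell type. The sort labels were checked against marker RNA. The 8 cDC1 markers, among them Xcr1 and Clec9a, summed to 1397 to 1725 CPM in cDC1 and 98.8 to 132 CPM in cDC2. The 8 cDC2 markers, among them Sirpa and Cd209a, summed to 2.65 to 5.18 CPM in cDC1 and 287 to 375 CPM in cDC2. Bulk values cannot tell fewer expressing cells from less RNA per cell. Red pulp macrophages are rich in Hmox1, Slc40a1 and Spic, so a list of 13 macrophage markers was measured. Apart from Treml4, which is also found on splenic dendritic cells, its other 12 markers summed to 6.82 to 12.4 CPM in cDC1 with WT medium, 4.07 to 5.47 with BimS medium and 5.47 to 9.03 with RIPK3 medium. In cDC2 the same sums were 24.9 to 28.5, 16.0 to 19.9 and 16.9 to 19.6 CPM, with Mrc1 the highest. Vcam1, C1qa, Cd163, Cd5l, Mertk and Siglec1 stayed at or below 41 counts in every sample. Adgre1 reached 88 counts, Axl 102 and Mrc1 317. Treml4 itself went from 167 CPM to 457 and 464 CPM in cDC1, and from 23.9 to 84.7 and 69.5 CPM in cDC2. Monocyte markers summed to 148 to 246 CPM in cDC1 and 144 to 203 CPM in cDC2, plasmacytoid dendritic cell markers to 54.3 to 66.0 and 173 to 217 CPM, and the lists for neutrophils, B cells and T and NK cells to at most 4.75 CPM each. Erythroid markers, globins and Alas2 among them, summed to at most 1.73 CPM. In cDC1 the list of 10 epithelial and stromal markers for TC-1 cells summed to 2.60 to 3.76 CPM across the media. In cDC2 the corresponding sum was 19.8 to 39.6 CPM, almost all of it Cdh1. Whether TC-1 cells express these markers was not tested.

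**Figure D1:**
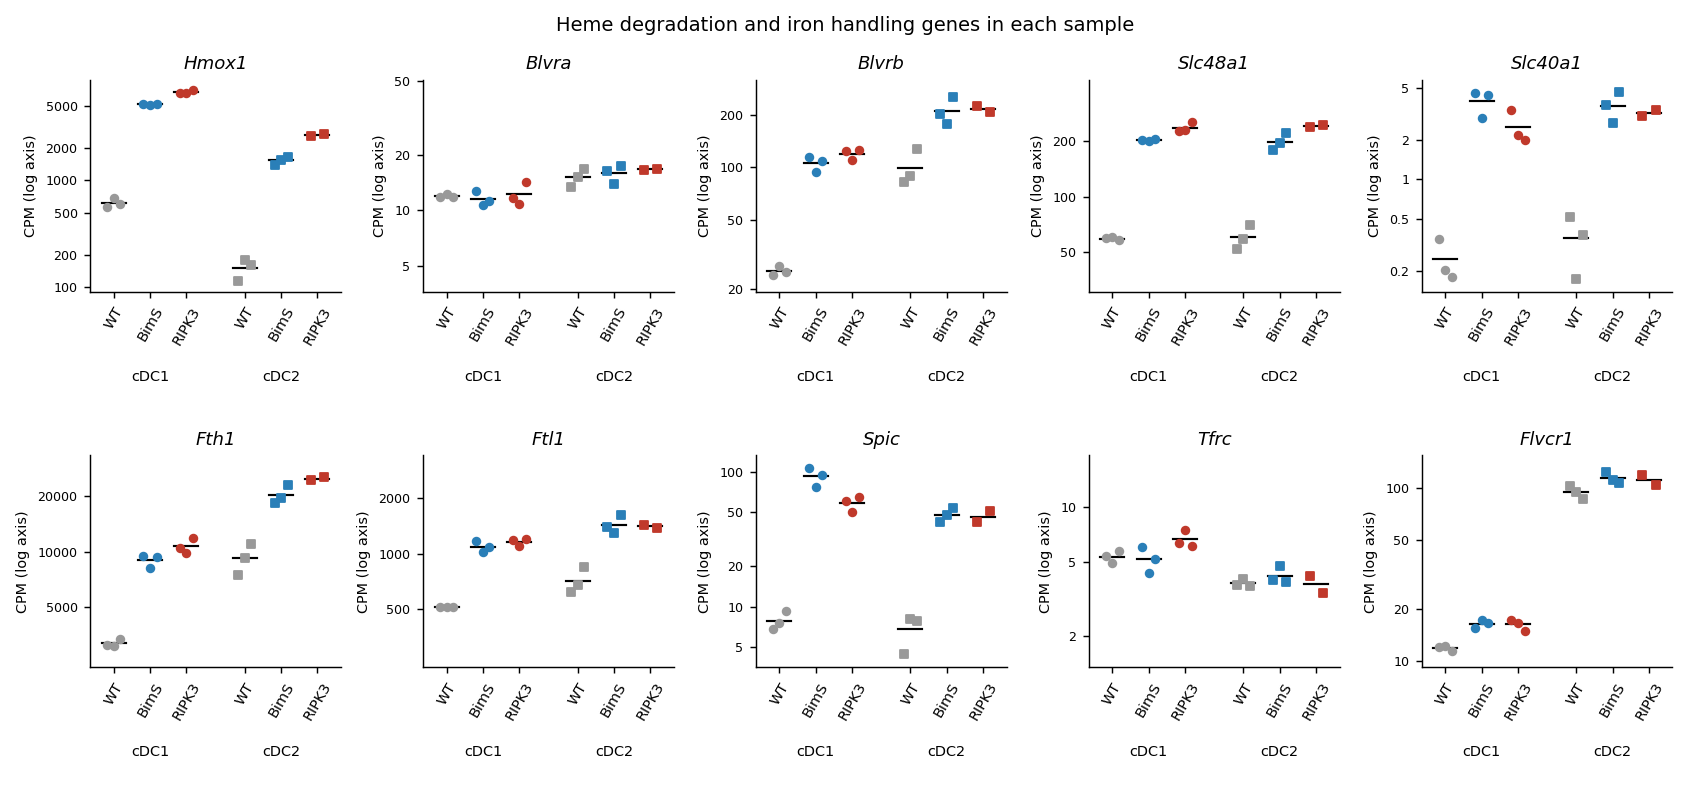
Level of each of the 10 genes in each of the 17 samples, in CPM on a log axis, by cell type and medium. Points are samples (circles cDC1, squares cDC2) and bars are group means. Hmox1, Slc48a1, Slc40a1, Fth1, Ftl1 and Spic lie above their WT samples with both media of dying cells in both cell types. Blvra overlaps between media, and Tfrc overlaps in cDC2 but lies slightly above WT in cDC1 with RIPK3 medium.

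Most of the set was higher in cDC1 that had received medium of dying cells. Hmox1, the first enzyme of heme breakdown, was at 8.30 times its WT level with BimS medium and 10.8 times with RIPK3 medium. Spic and Slc40a1 showed fitted changes of the same order from a low base, and Blvrb, Slc48a1, Fth1 and Ftl1 changed by factors of 2.13 to 4.67. With an adjusted p under 0.05 as the mark, 8 of the 10 genes were called higher with BimS medium, against 7.31% of all 19513 genes tested. Likewise 8 of 10 were called higher with RIPK3 medium, against 8.34%. These comparisons were taken to have chosen the set, so nothing is read from the shares. The median log2 fold change of the set was 1.63 and 1.87, beside 0.00 and -0.01 over all genes tested.

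In cDC2 most of these genes were higher too. Hmox1 was at 10.1 times its WT level with BimS medium and 17.5 times with RIPK3 medium. Of the 10 genes, 7 were called higher with BimS medium (3.8% of 19239 genes tested) and 7 with RIPK3 medium (3.93%). Flvcr1, called in cDC1, was not called in cDC2. With the replicate number as a block it was called there with both media, making 8 genes (11.0% and 10.0% of all genes), and with BimS medium also with no filter and without cDC2 WT replicate 1. The set's median log2 fold change was 1.11 and 1.26, beside -0.02 and -0.02 over all genes. Blvra and Tfrc were not called with either medium in either cell type.

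**Figure D2:**
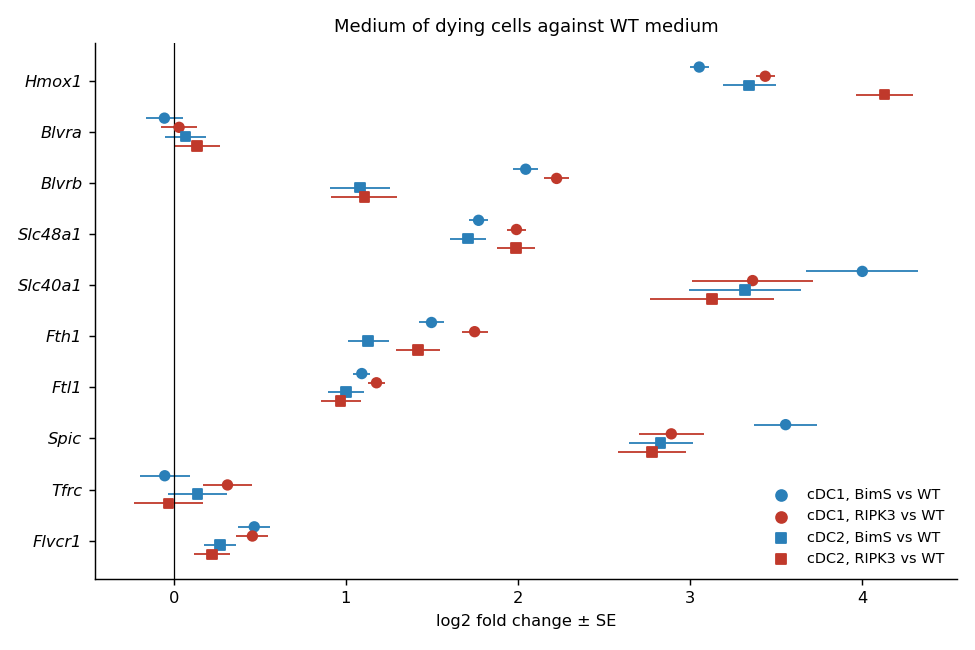
Log2 fold change ± SE of each gene with BimS medium (blue) and RIPK3 medium (red) against WT medium, in cDC1 (circles) and cDC2 (squares). Hmox1, Slc40a1 and Spic lie near 3 to 4, the ferritin chains, Blvrb and Slc48a1 near 1 to 2.2, and Blvra and Tfrc between -0.05 and 0.31. The values were taken to be those that chose the set and carry no test.

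Hmox1 (chr8:75820241-75827217, plus strand) had the highest level among the enzymes of heme breakdown. In cDC1 it measured 569, 685 and 605 CPM with WT medium, 5231, 5037 and 5157 CPM with BimS medium, and 6524, 6606 and 7001 CPM with RIPK3 medium. The 3 groups did not overlap and stood in the order WT, BimS, RIPK3. In cDC2 it measured 114, 179 and 162 CPM with WT medium, 1385, 1564 and 1673 CPM with BimS medium, and 2608 and 2736 CPM with RIPK3 medium. The order was the same, again without overlap, at a lower level throughout. The log2 fold change against WT medium was 3.05 ± 0.05 (SE) with BimS and 3.44 ± 0.06 with RIPK3 medium in cDC1, and 3.34 ± 0.15 and 4.13 ± 0.17 in cDC2. With RIPK3 medium Hmox1 took 0.639% to 0.693% of all counts in cDC1.

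The 2 genes of the set named as biliverdin reductases differed in their response, and which of them acts on the product of Hmox1 was not tested. Blvrb, which also reduces flavins, measured 24.2, 27.3 and 25.1 CPM in cDC1 with WT medium, 114, 94.1 and 108 CPM with BimS medium, and 123, 110 and 125 CPM with RIPK3 medium. Both media of dying cells gave values above every WT sample, and the BimS and RIPK3 ranges overlapped. In cDC2 the levels were 81.8, 89.5 and 127 CPM with WT medium, 201, 178 and 254 CPM with BimS medium, and 224 and 207 CPM with RIPK3 medium. The log2 fold changes were 2.05 ± 0.07 and 2.22 ± 0.07 in cDC1, and 1.08 ± 0.17 and 1.11 ± 0.19 in cDC2. The difference between cell types in these log2 changes was 0.96 ± 0.23 for BimS medium and 1.11 ± 0.24 for RIPK3 medium, larger in cDC1. Blvra, the other reductase, stayed between 10.7 and 17.4 CPM in all 17 samples. Its log2 fold changes ran from -0.05 ± 0.11 to 0.13 ± 0.13. The counts of Blvrb went from 2.04 to 2.23 times those of Blvra in cDC1 with WT medium to 8.79 to 10.5 times with RIPK3 medium. Reads were not divided by gene length for this ratio, and both canonical transcripts are of similar length (1193 and 1156 bases for Blvra and Blvrb).

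Slc48a1, which moves heme out of the phagolysosome into the cytosol, was measured tightly. In cDC1 it stood at 59.4, 60.2 and 58.2 CPM with WT medium, 203, 200 and 204 CPM with BimS medium, and 226, 229 and 252 CPM with RIPK3 medium. In cDC2 it stood at 51.9, 59.0 and 69.9 CPM, then 178, 194 and 221 CPM, then 239 and 243 CPM. In both cell types the 3 media formed separate ranges in the order WT, BimS, RIPK3. The log2 fold changes were 1.77 ± 0.05 and 1.99 ± 0.05 in cDC1, and 1.71 ± 0.10 and 1.99 ± 0.11 in cDC2. In the annotation, exons of Slc48a1 share 2396 bases with Hdac7, a histone deacetylase gene on the opposite strand. The strand setting of the read counting is not given in the sources used here. Hdac7 itself averaged 19.7, 19.0 and 19.1 CPM in cDC1 and 6.45, 7.55 and 7.90 CPM in cDC2 across WT, BimS and RIPK3 medium.

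Flvcr1, known as an exporter of heme at the cell surface and more recently as a choline transporter, changed by less than the genes above apart from Blvra. In cDC1 it measured 12.1, 12.1 and 11.5 CPM with WT medium, 15.5, 17.3 and 16.5 CPM with BimS medium, and 17.3, 16.6 and 15.0 CPM with RIPK3 medium. In cDC2 it measured 103, 95.0 and 86.3 CPM, then 124, 112.3 and 107 CPM, then 119 and 104 CPM. The cDC1 groups with medium of dying cells lay above all WT samples, whereas in cDC2 the lower RIPK3 sample stood just above the highest WT sample. The log2 fold changes were 0.47 ± 0.09 and 0.46 ± 0.09 in cDC1, and 0.27 ± 0.09 and 0.22 ± 0.10 in cDC2.

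Fth1, the ferritin heavy chain with ferroxidase activity, was the most abundant message of the set. It measured 3107, 3090 and 3359 CPM in cDC1 with WT medium, 9481, 8147 and 9361 CPM with BimS medium, and 10503, 9799 and 11818 CPM with RIPK3 medium. In cDC2 it measured 7501, 9253 and 10946 CPM, then 18258, 19603 and 22836 CPM, then 24421 and 25305 CPM. In both cell types the ranges followed the order WT, BimS, RIPK3 without overlap. With RIPK3 medium 2.35% and 2.45% of all counts in the 2 cDC2 samples came from Fth1. The log2 fold changes were 1.50 ± 0.07 and 1.75 ± 0.08 in cDC1, and 1.13 ± 0.12 and 1.42 ± 0.13 in cDC2.

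Ftl1, the light chain that nucleates the iron core, changed less. It measured 512, 514 and 512 CPM in cDC1 with WT medium, 1176, 1021 and 1084 CPM with BimS medium, and 1187, 1099 and 1196 CPM with RIPK3 medium. In cDC2 it measured 617, 673 and 851 CPM, then 1389, 1288 and 1611 CPM, then 1439 and 1374 CPM. Values with BimS and RIPK3 medium overlapped in both cell types, and both lay above all WT samples. The log2 fold changes were 1.09 ± 0.05 and 1.18 ± 0.05 in cDC1, and 1.00 ± 0.11 and 0.97 ± 0.12 in cDC2. Counts of Fth1 were 6.02 to 6.56 times those of Ftl1 in cDC1 with WT medium, 7.98 to 8.63 times with BimS medium and 8.85 to 9.88 times with RIPK3 medium. In cDC2 the ratio was 12.2 to 13.8, 13.1 to 15.2, and 17.0 to 18.4. The canonical transcripts of Fth1 and Ftl1 have 929 and 969 bases, so length alters this ratio little. Processed copies of both genes exist, and reads may be split between them. The most abundant copy, Ftl1-ps1, averaged 15.5, 32.7 and 35.2 CPM in cDC1 with WT, BimS and RIPK3 medium, and Fth1-ps averaged 0.52, 1.58 and 1.71 CPM. Both copies were higher in the same groups as their parent genes.

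Slc40a1, which encodes ferroportin, the only known cellular iron exporter, was near the limit of detection with WT medium and low throughout. In cDC1 it had 7, 4 and 4 counts with WT medium, 90, 63 and 86 counts with BimS medium, and 67, 44 and 35 counts with RIPK3 medium. In cDC2 it had 10, 3 and 7 counts, then 61, 53 and 78 counts, then 47 and 58 counts. Every sample with medium of dying cells lay above every WT sample. The level reached at most 4.65 CPM, and the WT samples stood between 0.172 and 0.513 CPM. The fitted log2 fold changes were 4.00 ± 0.32 and 3.36 ± 0.35 in cDC1, and 3.32 ± 0.33 and 3.13 ± 0.36 in cDC2, and with WT counts this low they depend on the fit. Tfrc, the receptor that takes up transferrin-bound iron, measured 5.38, 4.93 and 5.75 CPM in cDC1 with WT medium, 6.01, 4.35 and 5.21 CPM with BimS medium, and 6.37, 7.48 and 6.10 CPM with RIPK3 medium. In cDC1 the RIPK3 samples lay above all WT and BimS samples, with a log2 fold change of 0.31 ± 0.14 against WT medium, and the WT and BimS samples overlapped. In cDC2 its values lay between 3.40 and 4.78 CPM in all 8 samples, and the media overlapped.

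Spic, the ETS factor that red pulp macrophages require and that heme induces through loss of BACH1, was low in all WT samples. In cDC1 it measured 6.77, 7.53 and 9.21 CPM with WT medium, 106, 77.0 and 94.9 CPM with BimS medium, and 60.4, 50.2 and 65.0 CPM with RIPK3 medium. The order in cDC1 was WT, RIPK3, BimS without overlap, which differs from that of Hmox1. In cDC2 it measured 4.41, 8.09 and 7.82 CPM, then 42.8, 47.7 and 53.6 CPM, then 42.2 and 50.9 CPM, with BimS and RIPK3 values overlapping. The log2 fold changes were 3.56 ± 0.19 and 2.89 ± 0.19 in cDC1, and 2.83 ± 0.19 and 2.78 ± 0.20 in cDC2. The sum of the 12 macrophage markers other than Treml4 was lowest in cDC1 with BimS medium, where Spic was highest. Treml4 was higher in the same groups as Spic, and its part in the result was not tested.

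Per kilobase of canonical transcript, which allows genes to be set beside each other, the mean level with RIPK3 medium in cDC1 was 11525 CPM for Fth1, 4255 for Hmox1, 1198 for Ftl1, 103 for Blvrb, 87.3 for Slc48a1, 33.2 for Spic, 10.3 for Blvra, 3.98 for Flvcr1, 1.36 for Tfrc and 0.733 for Slc40a1. With WT medium in cDC1, Ftl1 (529) stood above Hmox1 (393) on the same scale. In cDC2 with RIPK3 medium the order began with Fth1 (26763), Hmox1 (1694) and Ftl1 (1451).

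Whether necroptotic and apoptotic medium acted differently was tested directly in each cell type. In cDC1, Hmox1 was 1.30 times and Slc48a1 1.16 times as high with RIPK3 as with BimS medium. These were 2 of 10 genes called higher, beside 1.94% of all genes tested. For Hmox1 the log2 fold change was 0.38 ± 0.05 (adjusted p = 1.0e-05 in edgeR's quasi-likelihood test), and for Slc48a1 it was 0.22 ± 0.05 (adjusted p = 0.0055). All 3 RIPK3 samples exceeded all 3 BimS samples for both genes. Neither passed with limma on log2(count + 1), which has no library normalization and moved the median of all genes to -0.09 in this contrast, at 0.30 (adjusted p = 0.057) for Hmox1 and 0.14 (adjusted p = 0.65) for Slc48a1, where Spic was the gene called (-0.74, adjusted p = 7.1e-08). Spic and Slc40a1 had the opposite sign. Spic stood at -0.66 ± 0.15 on the log2 scale (adjusted p = 0.063) and Slc40a1 at -0.64 ± 0.21 (adjusted p = 0.087). Fth1 was at 0.25 ± 0.07 (adjusted p = 0.091), Tfrc at 0.36 ± 0.14 (0.17) and Blvrb at 0.18 ± 0.06 (0.13), and none of these passed. The other 3 genes were within 0.09 of 0. Downward, 0 of the 10 genes passed with edgeR, beside 2.21% of all genes. At an unadjusted p under 0.05 there were 2 downward (8.2% of all genes), by DESeq2 1 (3.96%), and by limma 1, 0 and 1 on log2 CPM, on the deposited normalized values and on log2(count + 1) (2.02%, 2.27% and 1.77%).

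In cDC2, Hmox1 was 1.73 times as high with RIPK3 as with BimS medium, with a log2 fold change of 0.79 ± 0.15 and both RIPK3 samples above all 3 BimS samples (adjusted p = 0.067). None of the 10 genes passed the edgeR test, in an overall background of 0.161% called higher and 0.218% called lower. At an unadjusted p under 0.05 there were 3 genes, all upward (4.05% of all genes upward), by DESeq2 1 (0.526%), and by limma 0, 0 and 1 on the same 3 scales (0.12%, 0.12% and 0.0884%). Spic was at -0.05 ± 0.18 and Blvrb at 0.03 ± 0.19, Fth1 at 0.29 ± 0.13 and Slc48a1 at 0.28 ± 0.11.

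Same-numbered samples deviated together within each cell type, and the replicate number as a block changed several of these calls. With the block, 4 of 10 genes were higher in cDC1 with RIPK3 medium (Hmox1, Slc48a1, Fth1 and Blvrb; 4.07% of all genes) and 2 were lower (Spic and Slc40a1; 4.79%). The blocked log2 fold change in cDC1 was 0.25 ± 0.03 for Fth1 (adjusted p = 6.2e-09 in edgeR) and 0.18 ± 0.05 for Blvrb (adjusted p = 0.0095). It was -0.66 ± 0.06 for Spic (adjusted p = 1.4e-13) and -0.64 ± 0.19 for Slc40a1 (adjusted p = 0.015). In cDC2, 4 of 10 were higher with the block (5.92% of all genes): Hmox1 at 0.85 ± 0.12 (adjusted p = 0.0036), Fth1 at 0.40 ± 0.04 (adjusted p = 7.5e-20), Slc48a1 at 0.38 ± 0.05 (adjusted p = 2.9e-11) and Blvrb at 0.20 ± 0.05 (adjusted p = 0.0014). None was lower, beside 8.4% of all genes, and 0 of the 10 was lower by DESeq2 or by limma on any of the 3 scales, or at an unadjusted p under 0.05. Hmox1, Slc48a1, Fth1 and Blvrb were thus higher with RIPK3 than with BimS medium in both cell types under the block. Without it only Hmox1 and Slc48a1 in cDC1 passed. The pairing was inferred from these same data. With the block the share of all genes called rose from 4.15% to 8.87% in cDC1 and from 0.379% to 14.3% in cDC2. The blocked fits have few samples per term, in cDC2 above all. Their p-values rest largely on a spread pooled over genes and may be too small.

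**Figure D3:**
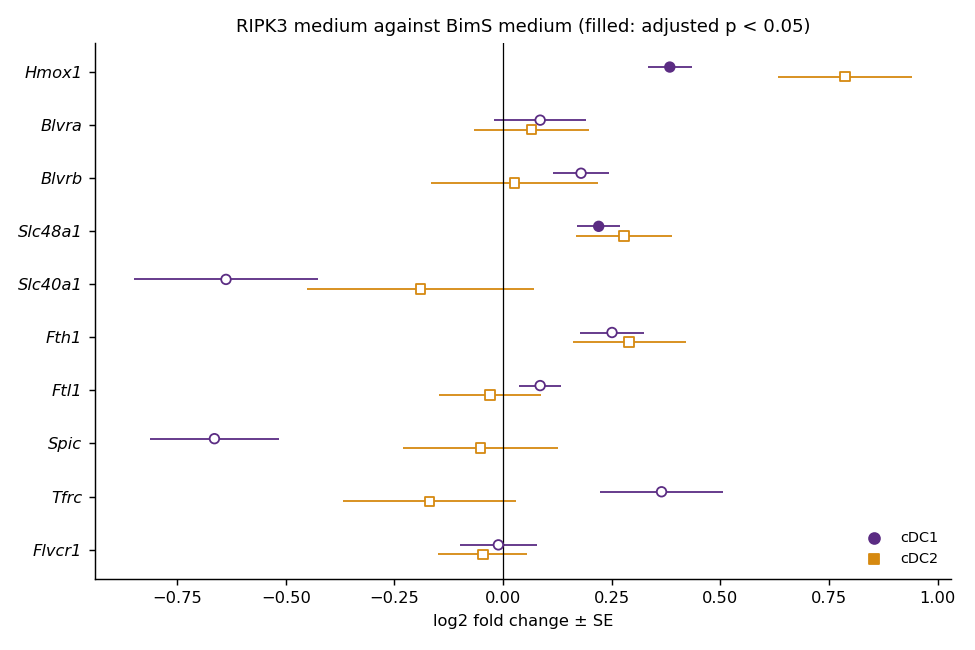
Log2 fold change ± SE with RIPK3 against BimS medium in cDC1 (circles) and cDC2 (squares), from the fits without a replicate block. Filled symbols passed an adjusted p of 0.05, which in cDC1 were Hmox1 and Slc48a1. Spic and Slc40a1 lie near -0.65 in cDC1 and nearer to 0 in cDC2.

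The cell types did not differ detectably in this contrast. In the test of the difference between the cDC1 and cDC2 changes, 0 of the 10 genes passed with edgeR, and 0.0314% of all 19082 genes did. At an unadjusted p under 0.05 there were 3 genes (5.09% of all genes), by DESeq2 0, and by limma 0 on each of the 3 scales. For Spic the difference was -0.62 ± 0.25 (cDC1 minus cDC2, adjusted p = 0.92 in edgeR), for Tfrc 0.53 ± 0.24 and for Hmox1 -0.41 ± 0.18 (adjusted p = 0.95 for each).

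With WT medium the cell types differed in 7 of the 10 genes. In the fit across all samples, 2 were higher in cDC1 (22.5% of all genes) and 5 were lower (23.7% of all genes). The share called higher is thus near that of all genes. Hmox1 was 4.09 times as high in cDC1, with a log2 difference of 2.03 ± 0.13 (adjusted p = 1.1e-09 in edgeR) and all cDC1 samples above all cDC2 samples. Tfrc was 1.39 times as high, at 0.48 ± 0.16 (adjusted p = 0.012 in edgeR, and 0.051 without cDC1 WT replicate 3). Lower in cDC1 were Flvcr1 at -2.99 ± 0.09 (adjusted p = 1.5e-21 in edgeR), Blvrb at -1.96 ± 0.17 (2.0e-07), Fth1 at -1.54 ± 0.12 (1.3e-08), Ftl1 at -0.48 ± 0.09 (0.00016) and Blvra at -0.33 ± 0.11 (0.016, and 0.052 or 0.097 without cDC1 or cDC2 WT replicate 3). Thus the cell type with more Hmox1 had less ferritin and less Blvrb message. Slc48a1 was at -0.02 ± 0.09 (adjusted p = 0.85 in edgeR), Spic at 0.22 ± 0.23 (0.48) and Slc40a1 at -0.56 ± 0.56 (0.45), where the few counts leave the interval wide.

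**Figure D4:**
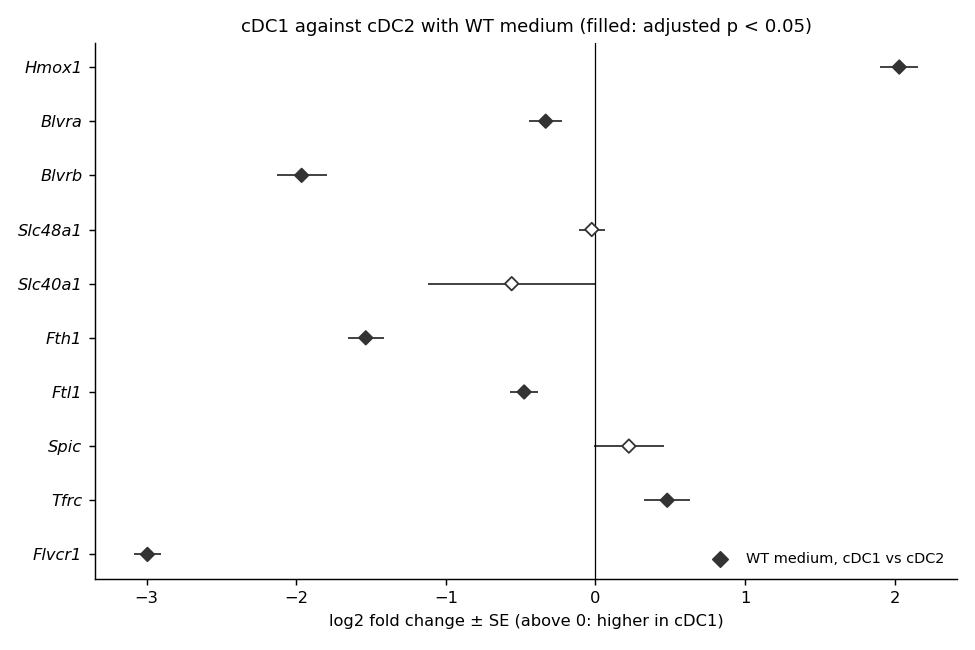
Log2 difference ± SE between cDC1 and cDC2 with WT medium for each gene, above 0 where cDC1 was higher. Filled symbols passed an adjusted p of 0.05: Hmox1 and Tfrc were higher in cDC1, and Flvcr1, Blvrb, Fth1, Ftl1 and Blvra higher in cDC2.

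The order of the cell types was kept with medium of dying cells for Hmox1, where every cDC1 sample with BimS or RIPK3 medium (5037 to 7001 CPM) exceeded every cDC2 sample (1385 to 2736 CPM). For Fth1 the reverse held, with 8147 to 11818 CPM in cDC1 and 18258 to 25305 CPM in cDC2. The log2 change against WT medium differed between cell types by -0.29 ± 0.17 for BimS and -0.70 ± 0.18 for RIPK3 medium in Hmox1, and by 0.37 ± 0.16 and 0.32 ± 0.17 in Fth1. For Spic these differences were 0.72 ± 0.29 and 0.10 ± 0.30. They are given as descriptions, since the contrasts with WT medium were taken to have chosen the set.

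Beyond the 10 genes, 62 other genes of heme synthesis, heme and bilirubin transport, iron uptake, sensing, storage and mitochondrial iron use were listed. Of these 50 were tested within each cell type. In cDC1, 9 were higher with BimS medium (against 7.31% of all genes) and 5 lower (5.89%), or 8 lower with the replicate block (8.51%). With RIPK3 medium 10 were higher (8.34%) and 7 lower (8.19%). In cDC2, 9 were higher with BimS medium (3.8%), or 14 with the block (11.0%), and 3 lower (3.21%), or 9 with the block (10.3%). With RIPK3 medium 7 were higher in cDC2 (3.93%), or 16 with the block (10.0%), and 2 lower (3.28%), or 12 with the block (11.4%). The median log2 fold change of these genes ran from -0.04 to 0.02 over the 4 comparisons, and that of all genes from -0.02 to 0.00. The list outside the 10 genes thus moved in both directions.

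The listed genes that rose most were the same 3 in all 4 comparisons: Abcc1, Slc11a1 and Fech. Abcc1, an export pump for glutathione conjugates that also carries bilirubin, averaged 379 ± 17.5 CPM (SD, n = 3) in cDC1 with WT medium, 1053 ± 31.9 with BimS medium and 1035 ± 64.6 with RIPK3 medium. In cDC1 it rose by 1.47 ± 0.05 and 1.45 ± 0.05 on the log2 scale (adjusted p = 1.1e-22 and 1.4e-22 in edgeR). In cDC2 it averaged 676, 1375 and 1220 CPM, at 1.02 ± 0.08 (adjusted p = 6.5e-08 in edgeR) and 0.84 ± 0.09 (1.9e-06) on the log2 scale. Slc11a1, the NRAMP1 pump that moves iron out of phagosomes, averaged 108, 210 and 234 CPM in cDC1 and 11.5, 26.9 and 29.6 CPM in cDC2. Its log2 fold changes were 0.96 ± 0.06 (adjusted p = 2.5e-13 in edgeR) and 1.11 ± 0.06 (5.6e-15) in cDC1, and 1.22 ± 0.19 (0.0020) and 1.36 ± 0.21 (0.0016) in cDC2. Fech, the ferrochelatase that inserts iron in the last step of heme synthesis, averaged 25.6, 44.3 and 45.1 CPM in cDC1 and 11.7, 21.0 and 18.8 CPM in cDC2. Its fold changes were 1.73 and 1.76 in cDC1, and 1.78 and 1.59 in cDC2 (adjusted p from 1.3e-08 to 0.0010 in edgeR), and in cDC2 with RIPK3 medium it did not pass by limma on log2(count + 1) (adjusted p = 0.068).

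Among those that fell, Hfe, whose product binds the transferrin receptor, averaged 44.0, 36.0 and 35.8 CPM in cDC1 and 20.9, 12.5 and 13.7 CPM in cDC2. Its log2 fold changes were -0.29 ± 0.07 and -0.30 ± 0.07 in cDC1, and -0.74 ± 0.11 and -0.62 ± 0.12 in cDC2 (adjusted p from 0.00015 to 0.0027 in edgeR). Urod, an enzyme of heme synthesis, fell with both media in cDC1, by 0.35 and 0.36 on the log2 scale (adjusted p = 0.0050 and 0.0041). In cDC2 Urod fell with BimS medium, by 0.54 ± 0.11 (adjusted p = 0.0048 in edgeR), and was at -0.41 ± 0.13 with RIPK3 medium (adjusted p = 0.064). Hmox2, the constitutive heme oxygenase, went from 63.5 to 52.9 CPM with BimS medium in cDC1, a log2 fold change of -0.27 ± 0.06 (adjusted p = 0.0023 in edgeR). With RIPK3 medium in cDC1 Hmox2 was at -0.18 ± 0.06 (adjusted p = 0.048 in edgeR). The 2 heme oxygenases thus changed in opposite directions in cDC1, where the change of Hmox1 is a description only. In cDC2, Slc25a39, a mitochondrial glutathione carrier, fell with BimS medium (-0.38 ± 0.11, adjusted p = 0.046 in edgeR) and Aco1, iron regulatory protein 1, with RIPK3 medium (-0.44 ± 0.12, adjusted p = 0.031 in edgeR). Neither passed with the other medium in cDC2. Slc25a39 was at -0.02 ± 0.12 with RIPK3 medium (adjusted p = 0.97 in edgeR) and Aco1 at -0.15 ± 0.11 with BimS medium (0.51). The call of Slc25a39 was lost in 12 alternatives, among them DESeq2 and all single samples left out except cDC2 WT replicate 1 (adjusted p from 0.056 to 0.18). That of Aco1 was lost without either RIPK3 sample or without WT replicate 1 or 2 (adjusted p from 0.053 to 0.37 in edgeR), and that of Hfe in cDC2 without RIPK3 replicate 1 (0.083). In cDC1, Urod was lost with both media without WT replicate 3 (0.072 and 0.060), and Hfe and Hmox2 with BimS medium by limma on log2(count + 1) (0.051 and 0.063).

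Among the heme-responsive regulators, chosen for display after their values were seen, Bach1 averaged 317, 515 and 486 CPM in cDC1 and 408, 566 and 515 CPM in cDC2. Its message rose in cDC1 by 0.70 ± 0.06 and 0.62 ± 0.06 on the log2 scale (adjusted p = 1.4e-10 and 1.5e-09 in edgeR) and in cDC2 with BimS medium by 0.47 ± 0.11 (adjusted p = 0.010). The value in cDC2 with RIPK3 medium was 0.33 ± 0.12 (adjusted p = 0.12). Nfe2l2, which encodes the activator NRF2, averaged 481, 475 and 484 CPM in cDC1 and 293, 313 and 347 CPM in cDC2, and passed in none of these 4 comparisons (adjusted p from 0.094 to 0.95 in edgeR).

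**Figure D5:**
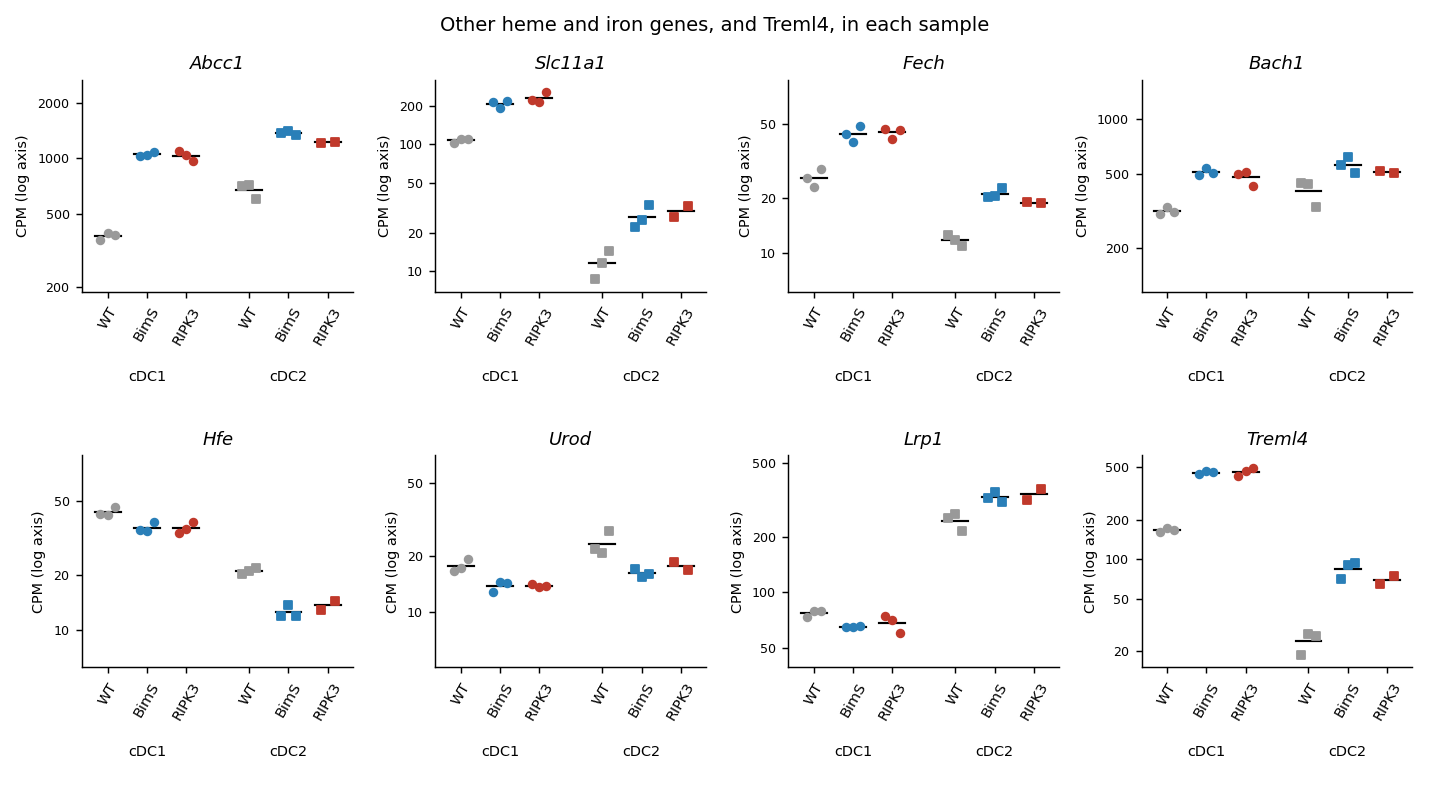
Level of 7 other heme and iron genes and of Treml4 in each of the 17 samples, in CPM on a log axis. Points are samples (circles cDC1, squares cDC2) and bars are group means. Abcc1, Slc11a1 and Fech rise and Hfe falls with both media in both cell types, and Lrp1 moves down in cDC1 and up in cDC2.

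With RIPK3 against BimS medium, 1 of the 50 listed genes was higher in cDC1 and 1 lower, beside 1.94% and 2.21% of all genes, or 5 and 3 with the replicate block, beside 4.07% and 4.79%. The counts without the block are near the share of all genes. The higher one was Slc25a28, a mitochondrial iron importer, at 0.25 ± 0.07 on the log2 scale (adjusted p = 0.020 in edgeR). This call was lost without any 1 of the BimS replicates, without RIPK3 replicate 1 or 2, and with limma on log2(count + 1) or on the deposited values (adjusted p from 0.054 to 0.60). The lower one was Ncoa4, the receptor that delivers ferritin to lysosomes for breakdown, which averaged 19.6 CPM with BimS and 15.5 CPM with RIPK3 medium (-0.34 ± 0.08, adjusted p = 0.014 in edgeR). This call was lost without BimS replicate 1 or 2 (adjusted p = 0.054 and 0.058 in edgeR). In cDC2 none passed in either direction with edgeR, DESeq2 or limma on any of the 3 scales. At an unadjusted p under 0.05 there were 3 higher and 3 lower (4.05% and 4.54% of all genes), and with the block 8 and 6 (5.92% and 8.4%). Ncoa4 in cDC2 was at -0.47 ± 0.14 (adjusted p = 0.23 in edgeR).

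With WT medium 10 of 51 listed genes were higher in cDC1 and 20 lower, beside 22.5% and 23.7% of all genes. Slc11a1 was 9.40 times as high in cDC1 (log2 difference 3.23 ± 0.17, adjusted p = 1.8e-10 in edgeR), Fech 2.18 times and Hfe 2.10 times. Lower in cDC1 were Lrp1, a receptor for hemopexin-bound heme, at -1.66 ± 0.08 (adjusted p = 2.5e-16 in edgeR), Slc25a37, the mitoferrin 1 gene, at -1.38 ± 0.14 (2.2e-09) and Bach2, a relative of Bach1, at -0.96 ± 0.19 (0.00050).

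The genes outside the set whose log2 CPM followed Hmox1 most closely over the 17 samples, among 7776 compared, were Cxcl3 (Pearson r = 0.986), Exoc3 (0.986), Arhgdib (0.984), Atp6v1a (0.984) and Wdr1 (0.984). Cxcl3, a chemokine gene, averaged 68.7, 492 and 700 CPM in cDC1 and 26.9, 250 and 294 CPM in cDC2, and shared with Hmox1 both the higher level in cDC1 and the order of the media. Those closest to Spic were Top3a (0.982), Creg1 (0.978), Tbce (0.970), Gm17586 (0.968) and Tma16 (0.966). Creg1, a lysosomal glycoprotein gene, averaged 118, 287 and 290 CPM in cDC1 and 109, 211 and 222 CPM in cDC2. The points share 2 cell types and 3 media, and group differences dominate such coefficients. Within the set, the highest coefficient was that of Blvrb with Fth1 (0.980), and Hmox1 with Spic reached 0.917.

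The genes switched on in the TC-1 lines were also read in the sorted cells. Ripk3 averaged 24.2, 26.8 and 29.3 CPM in cDC1 and 26.7, 36.2 and 40.0 CPM in cDC2 with WT, BimS and RIPK3 medium. Bcl2l11, which encodes Bim, averaged 1320, 1346 and 1115 CPM in cDC1 and 257, 289 and 279 CPM in cDC2. Counts of the dendritic cells' own messages and of any transgene message in debris cannot be told apart for these genes.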

How the data were processed

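Poly(A) RNA libraries were sequenced from 17 samples of sorted cDC1 and cDC2. Per the paper's methods and the submitters' processing notes, the authors trimmed reads with SeqPurge, aligned them with STAR 2.7.10a to GRCm39 and counted them per Ensembl gene. The deposited table holds raw counts, and a second deposited table holds the authors' normalized log2 values, used here only as an alternative. Of 31239 lines, 148 carried no gene identifier (0.0258% to 0.0366% of counts) and were left out. Symbols came from GENCODE M39 (30854 identifiers matched).

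Genes detected in 50% or more of a fit's samples were tested with edgeR 4.0.16 (TMM, robust quasi-likelihood) in R 4.3.3, within cDC1 (9 samples), within cDC2 (8) and across all 17, with Benjamini-Hochberg adjustment over all genes. The fits were tested on simulated data first. DESeq2 1.42.0 and limma 3.58.1 served as alternatives, the latter also on log2(count + 1), the scale stated for the study. The 10 genes, the pathway lists and the marker lists were chosen with earlier results of these data known. Of the listed genes, those named had the 3 largest rises and falls per comparison among genes past an adjusted p of 0.05 with a group mean of at least 5 CPM. A result that this rule names is not reported here. For Hmox1 and Spic, the 5 genes of most similar log2 CPM (prior count 2) were named among genes averaging at least 3 log2 CPM. Bach1, Nfe2l2 and Treml4 were named after their values were seen.

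The replicate numbers of the labels were checked for pairing. Deviations from group means correlated above 0.1 in 9 of 9 same-numbered pairs within cDC1 (median 0.324) and 7 of 7 within cDC2 (median 0.426), so the numbers were taken to pair samples within a cell type. Across cell types 19 of 24 did (median 0.210, beside -0.101 for pairs with other numbers). Whether same numbers mean a shared culture across cell types is not stated in the labels. PCR duplicates were not counted by molecular identifiers in the sources used here, so depth covers counting error only.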

Additional observations from a re-analysis of the deposited data

Results flagged for a closer look

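Of the listed heme and iron genes outside the set of 10 that the text names, 2 responded differently in cDC1 and cDC2, by the test of the difference itself in edgeR. Lrp1 averaged 77.5, 65.1 and 68.5 CPM in cDC1 with WT, BimS and RIPK3 medium, and 245, 327 and 340 CPM in cDC2. Its log2 change was lower in cDC1 than in cDC2 by -0.67 ± 0.11 with BimS medium (adjusted p = 0.0013) and by -0.65 ± 0.12 with RIPK3 medium (adjusted p = 0.0027). Within cell types its change was -0.25 ± 0.06 (adjusted p = 0.0045) and -0.18 ± 0.06 (adjusted p = 0.0497) in cDC1, and 0.42 ± 0.09 (0.0067) and 0.46 ± 0.10 (0.0062) in cDC2. Abcc1 rose in both cell types, and its log2 change was larger in cDC1 by 0.45 ± 0.09 with BimS medium (adjusted p = 0.0096 in edgeR) and by 0.59 ± 0.10 with RIPK3 medium (adjusted p = 0.00062 in edgeR). Both contrasts share the WT samples of each cell type, and what sets the cell types apart was not tested.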

How the results depend on the processing

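Counts below are of genes called at the threshold of 0.05, and "listed genes" are those of the pathway list that are not members. Under all alternatives run, no member's fold change reversed in a called contrast: 1934 values kept their side of the threshold, 48 passed it only under the alternative and 18 no longer passed. The cause of each shift below was not tested.

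For RIPK3 against BimS in cDC1 the count of members called was 2 in the reported fit (4.15% of all genes called), 4 with DESeq2 (7.78%), 4 with filterByExpr (6.07%), 6 with no filter (3.63%), 1 with limma on log2(count + 1) (2.07%) and 6 with the replicate block (8.87%). Listed genes higher there numbered 1 in the reported fit, 2 with no filter, 0 with limma on log2(count + 1), 0 with limma on the deposited normalized values and 5 with the replicate block, and those lower numbered 1, with 2 under no filter and 3 with the replicate block. In cDC2 the count of members was 0 in the reported fit (0.379% of all genes called), 1 (Hmox1) with DESeq2 (1.28%), with no filter (1.11%) and with limma on log2(count + 1) (0.769%), and 4 with the replicate block (14.3%). Listed genes higher there went from 0 to 1 with no filter and 8 with the replicate block, and those lower from 0 to 1 and 6.

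Against WT medium in cDC1, listed genes higher with BimS medium went from 9 to 5 with limma on log2(count + 1), and those lower from 5 to 2, or to 8 with the replicate block. With RIPK3 medium those higher went from 10 to 6 with limma on log2(count + 1), and those lower from 7 to 4 with DESeq2 and 11 with limma on the deposited values. In cDC2, listed genes higher with BimS medium went from 9 to 14 with the replicate block, and those lower from 3 to 6 with limma on the deposited values and 9 with the replicate block. With RIPK3 medium those higher went from 7 to 2 with limma on log2(count + 1) and 16 with the replicate block, and those lower from 2 to 5 with no filter, 6 with limma on log2(count + 1), 7 with limma on the deposited values and 12 with the replicate block. Listed genes lower in cDC1 than in cDC2 with WT medium went from 20 to 10 with limma on log2(count + 1). Limma on log2(count + 1) moved the median of all genes by -0.12 in cDC1 and -0.17 in cDC2 for RIPK3 against WT, and by 0.16 for cDC1 against cDC2. The replicate block on the fit of all 17 samples left the counts of members at 7 and 0; there the numbers are shared between cell types without a stated pairing.

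With each library left out in turn, listed genes lower with RIPK3 medium in cDC1 ranged from 3 to 7, with 3 without WT replicate 1 or 3. For RIPK3 against BimS in cDC1, members ranged from 2 to 4 (4 without BimS or RIPK3 replicate 2), listed genes higher from 0 to 2 (0 without any one BimS replicate or RIPK3 replicate 2, 2 without RIPK3 replicate 3) and those lower from 0 to 2 (0 without BimS replicate 2, 2 without RIPK3 replicate 2). In cDC2, listed genes higher ranged from 5 to 9 with BimS medium (5 without BimS replicate 2) and from 3 to 9 with RIPK3 medium (4 and 3 without RIPK3 replicate 1 and 2), and those lower with RIPK3 medium from 0 to 5 (0 and 1 without RIPK3 replicate 1 and 2, 1 without WT replicate 1 or 2, 5 without WT replicate 3). Members called for RIPK3 against BimS in cDC2 ranged from 0 to 1, the 1 being Hmox1 without cDC2 WT replicate 1 or 2. Members called between cDC1 and cDC2 ranged from 5 to 7, with Blvra and Tfrc lost without cDC1 WT replicate 3 and Blvra also without cDC2 WT replicate 3. Leaving out a cDC2 RIPK3 sample leaves 1, which is assumed to vary like the other groups. With 2 to 3 samples per group, a difference that missed the threshold is not shown to be absent.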
